A study of Mus musculus with 8 samples.

Results

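CD45+ immune cells of E0771-Res1 tumors were compared with those of parental E0771 tumors, over all kept cells and then in lymphoid cells and in the remaining cells. E0771 is a murine triple-negative breast cancer line that grows in C57BL/6 mice, and E0771-Res1 is 1 of the lines that the authors established from E0771 tumors that relapsed after paclitaxel with an anti-PD-1 antibody. Cells of either line were implanted in the mammary fat pad, mammary tumors were taken on day 18, and the immune cells were sorted and sequenced as single cells. E0771-Res1 is a single line, so its mice repeat the tumor and not the origin of the resistance, and neither the age of the mice nor any treatment of them after implantation is given in the labels. Used here were 2 mice with parental tumors (mice 1 and 3) and 3 with E0771-Res1 tumors (mice 1, 2 and 3), while data of a further parental mouse were not used here. Of 5771 deposited cells of these 5 mice, 5288 had 500 to 6000 detected genes and under 10% mitochondrial counts, which were 1727 parental and 3561 E0771-Res1 cells among 10605 kept cells of the 8 mice of the series.

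Counts are unique molecular identifiers (UMIs), which mark single captured RNA molecules. Kept cells held 9868166 and 4993722 UMIs in parental mice 1 and 3 and 18544500, 5264536 and 7773523 in E0771-Res1 mice 1, 2 and 3, with medians of 7631 to 8160 UMIs per cell. Cells with at least 2 UMIs over Cd3d, Cd3e, Cd3g and Ncr1, which encode the CD3 chains of T cells and the NK cell receptor NKp46, were called lymphoid. They numbered 180 and 68 in parental and 288, 71 and 128 in E0771-Res1 mice, against 942 and 537, and 1732, 533 and 809, other cells. No cell barcode was shared between mice. The tumor keratin genes Krt5 and Krt19 and the mast cell gene Ms4a2 were at 0 UMIs in all 5 mice, but other markers of these cells were found. Krt8 was at 33 and 25 UMIs in parental and 61, 19 and 32 in E0771-Res1 mice. Epcam was at 10 and 4 against 55, 3 and 18 UMIs, and the mast cell gene Cpa3 at 1 to 3 UMIs per mouse. The lymphoid cells were not free of myeloid RNA: 61.7% to 69.8% of them in each mouse held more than 3 UMIs over 7 macrophage genes. The main edgeR and DESeq2 fits also held 3 mice with tumors of a further resistant line, E0771-Res2. Their p-values thus draw on the spread within all 3 groups. P-values measure the spread between mice, and the sums mix cell types, so that fewer cells of a type and less RNA per cell cannot be told apart.

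Most CD45+ cells of such tumors are monocytes and the macrophages that arise from them. Interferons act on these cells through transcription factors that bind interferon-stimulated response elements (ISRE) and gamma-activated sites (GAS) in promoters and raise antiviral, guanylate-binding and MHC class I genes. Macrophages that take up dying cells and lipid express Trem2, Lpl, Cd9 and complement C1q, and macrophages recruit neutrophils by chemokines such as CXCL2, whose gene is under NF-kB control.

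The promoters of 4 genes described below are shown as examples of such elements. The sequences are from RefSeq, build GRCm38.p6, and give the 250 bases before RefSeq's gene start, with letter matches in capitals: TTCNNNGAA (GAS) and GAAANNGAAA (ISRE) in Igtp, TTCNNNGAA at 2 places and GAAANNGAAA on the minus strand in Gbp7, GGGANNNNCC (kappaB, whose matches on both strands overlap) in Cxcl2, and GAAANNGAAA on the minus strand followed by TGANTCA (AP-1) in Mmp13.
Igtp promoter, chr11:58199306-58199555, plus strand: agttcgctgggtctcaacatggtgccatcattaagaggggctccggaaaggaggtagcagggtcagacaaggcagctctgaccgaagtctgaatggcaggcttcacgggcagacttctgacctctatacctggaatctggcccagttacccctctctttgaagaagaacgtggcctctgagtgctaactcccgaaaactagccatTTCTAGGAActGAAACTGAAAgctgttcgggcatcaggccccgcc
Gbp7 promoter, chr3:142530086-142530335, plus strand: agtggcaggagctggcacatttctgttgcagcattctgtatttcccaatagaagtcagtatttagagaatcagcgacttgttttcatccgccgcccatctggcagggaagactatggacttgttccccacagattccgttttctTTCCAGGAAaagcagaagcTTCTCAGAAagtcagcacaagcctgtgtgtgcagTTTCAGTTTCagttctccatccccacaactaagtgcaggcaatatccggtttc
Cxcl2 promoter, chr5:90903649-90903898, plus strand: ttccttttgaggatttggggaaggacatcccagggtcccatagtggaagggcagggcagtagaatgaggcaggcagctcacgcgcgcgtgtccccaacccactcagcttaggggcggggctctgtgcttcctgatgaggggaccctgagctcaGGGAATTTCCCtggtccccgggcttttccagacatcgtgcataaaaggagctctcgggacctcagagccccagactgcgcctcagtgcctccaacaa
Mmp13 promoter, chr9:7272264-7272513, plus strand: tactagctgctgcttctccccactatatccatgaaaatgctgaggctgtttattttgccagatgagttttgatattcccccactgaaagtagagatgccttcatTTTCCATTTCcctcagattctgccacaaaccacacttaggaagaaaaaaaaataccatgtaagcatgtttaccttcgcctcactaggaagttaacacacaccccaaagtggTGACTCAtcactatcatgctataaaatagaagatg
Letter matches were counted on both strands in windows of 300 bases, of which 50 lay after the start. An ISRE match stood in 61.5% of the 26 tested type I interferon-stimulated genes with a window, in 52.6% of 19 interferon gamma response genes, in 29.4% of 17 MHC class I genes and in 0 of 8 MHC class II genes, against 4.14% of the 8903 tested genes with a window and 3.44% of all 32851 windows. A GAS match stood in 42.1% of the interferon gamma response genes and 19.2% of the type I genes, against 8.2% of tested genes and 8.3% of all windows. KappaB matches were common everywhere, at 29.9% of tested genes, 20.7% of all windows and 40% of 15 chemokine genes, and AP-1 matches stood in 25% of 12 matrix genes against 6.35% of tested genes and 7.81% of all windows. Such matches stood in several lists: a kappaB match stood in 47.1% of the MHC class I genes, and an AP-1 match in 23.1% of the type I genes, 21.1% of the interferon gamma response genes and 26.7% of the chemokine genes. Of 18 TNF and NF-kB genes, 55.6% had a kappaB, 38.9% an AP-1 and 0 an ISRE match. An ISRE match also stood in 13.3% of the chemokine genes, 16.7% of the matrix genes and 7.14% of 14 lipid-associated macrophage genes. The start of Cxcl2 in the GENCODE annotation, at position 90903871, lies inside the window printed, after the kappaB match. The bases checked after the start of the Gbp7 window were found in no GENCODE transcript of that gene, unlike those of Igtp, Cxcl2 and Mmp13. The place of the Gbp7 matches relative to its start is thus less certain. A letter match is a description and not a shown binding site.

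In the other cells, which are mostly monocytes and macrophages, 3 genes rose and 1 fell in E0771-Res1 tumors: Mmp12, Lpl and Cd9 were higher and Ly6a was lower. These were 4 of 11363 genes tested (0.0352%) at an adjusted p under 0.05 by edgeR's quasi-likelihood test with Benjamini-Hochberg adjustment. At an unadjusted p under 0.05 there were 1384 genes (12.2%), and groups that did not overlap between mice were found in 28.1% of genes. DESeq2 called 136 of the 6957 genes that it kept for adjustment. Without parental mouse 1 or without parental mouse 3 edgeR called 0 genes, with 1067 and 697 at an unadjusted p under 0.05, so that each of these 4 calls depends on both parental mice.

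Lpl encodes lipoprotein lipase, which frees fatty acids from triglycerides (chr8:68880491-68907448, plus strand). It was at 123 and 121 CPM (counts scaled to a common library size) in parental mice 1 and 3 and at 311, 274 and 253 CPM in E0771-Res1 mice 1, 2 and 3. Every E0771-Res1 mouse lay above both parental mice, with a log2 fold change of 1.20 (SE 0.15, edgeR adjusted p = 0.0144). Without parental mouse 1 or 3 its adjusted p was 0.117 and 0.328. Cd9 encodes a tetraspanin of the cell membrane and exosomes (chr6:125460266-125494791, minus strand). It was at 95.7 and 104 CPM in parental and 186, 190 and 160 CPM in E0771-Res1 mice, again without overlap, and its log2 fold change was 0.84 (SE 0.10, edgeR adjusted p = 0.0144, and 0.119 and 0.328 without parental mouse 1 or 3). Mmp12, macrophage elastase, which degrades elastin (chr9:7344381-7369499, plus strand), showed the largest change of these genes. It was at 60.6 and 45.6 CPM in parental and 259, 127 and 171 CPM in E0771-Res1 mice. The highest value was in E0771-Res1 mouse 1, and the log2 fold change was 1.80 (SE 0.25, edgeR adjusted p = 0.0233, and 0.117 and 0.591 without parental mouse 1 or 3). Ly6a encodes Sca-1, a membrane-anchored surface protein that interferons raise (chr15:74994877-74998031, minus strand). It fell from 1199 and 1330 CPM in parental to 726, 723 and 801 CPM in E0771-Res1 mice, a log2 fold change of -0.75 (SE 0.10, edgeR adjusted p = 0.0159, and 0.117 and 0.440 without parental mouse 1 or 3).

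**Figure D1:**
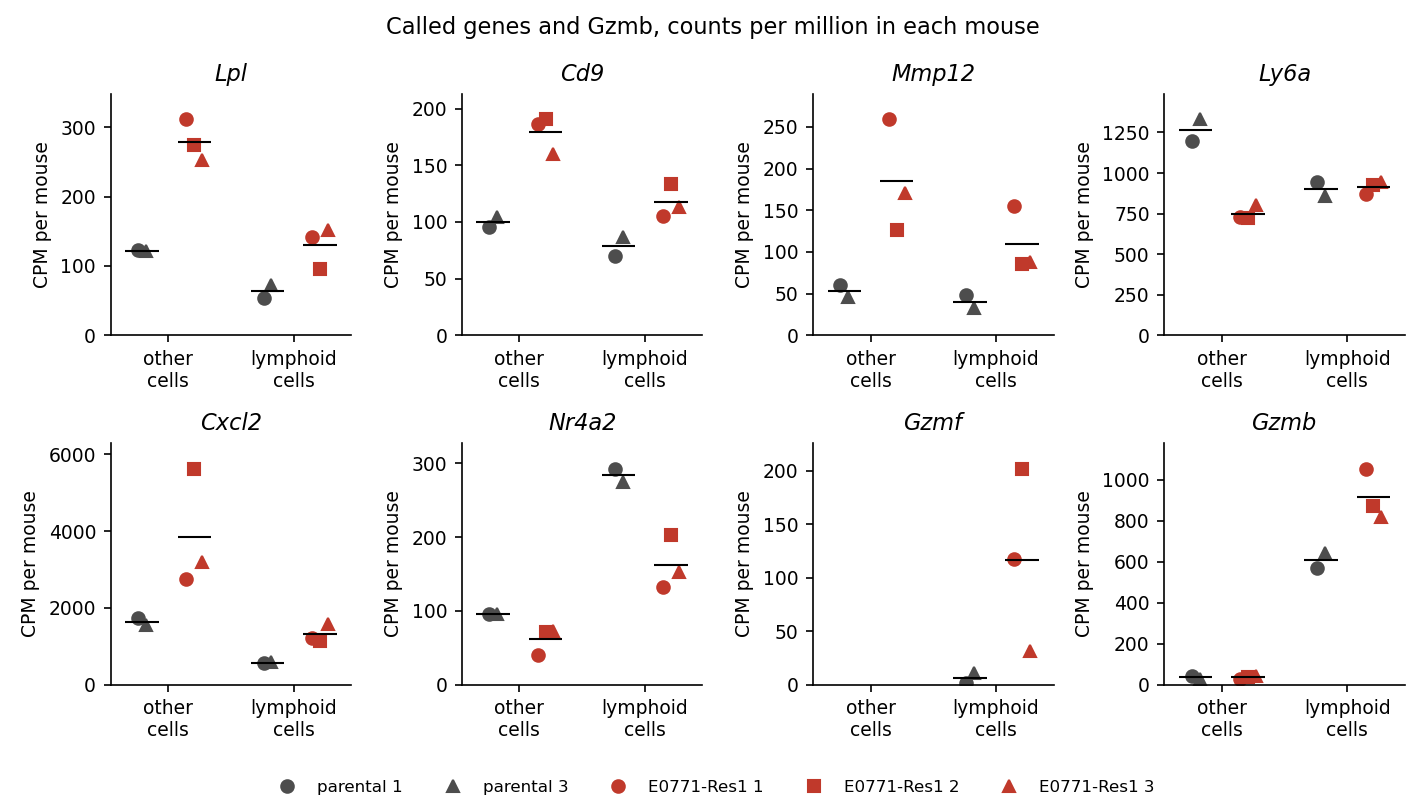
Level of called genes and Gzmb in each mouse, in CPM (vertical), in other and lymphoid cells, with Gzmf in lymphoid cells. Points are single mice and bars group means, and in the other cells all 3 E0771-Res1 mice lie above both parental mice for Lpl, Cd9 and Mmp12 and below them for Ly6a.

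Over all kept cells together, 6 of 11920 genes (0.0503%) passed, by edgeR with Benjamini-Hochberg adjustment: the 4 above, with Mmp13 and Nrp2. Mmp13 encodes collagenase 3, which cleaves fibrillar collagen (chr9:7272514-7283331, plus strand), and its promoter with the AP-1 match is printed above. It was at 32.4 and 22.6 CPM in parental and 77.5, 61.7 and 51.6 CPM in E0771-Res1 mice, a log2 fold change of 1.19 (SE 0.18, edgeR adjusted p = 0.0488). Of the other cells, 9.24% and 8.01% in parental and 16.2%, 12.8% and 8.41% in E0771-Res1 mice held an Mmp13 UMI. The top 5 of these cells held 39.5% and 45.1% of its UMIs in parental and 14.7%, 50.5% and 47.1% in E0771-Res1 mice. Nrp2 encodes neuropilin 2, a receptor of semaphorins and VEGF-C (chr1:62703285-62818695, plus strand). It rose from 28.2 and 22.4 CPM to 44.8, 43.5 and 44.2 CPM, with a log2 fold change of 0.78 (SE 0.11, edgeR adjusted p = 0.0287). In the other cells alone both had an edgeR adjusted p of 0.0591. The genes that rose are thus 2 matrix proteases, a lipase and 2 membrane proteins. Without parental mouse 1 or 3 edgeR called 0 genes over all kept cells too, with 1022 and 606 at an unadjusted p under 0.05.

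Interferon-stimulated genes were lower in the other cells of E0771-Res1 tumors, as values below the parental ones in nearly every member though no single member passed the adjusted test. All 34 type I interferon-stimulated genes tested, of 35 in the list, had a log2 fold change below 0, with a median of -0.40 against 0.0058 over all genes. Of these, 29 had an unadjusted p under 0.05 in that direction, where 6.27% of all genes did, and 27 were lower without overlap between mice, where 14.6% of all genes were. EdgeR called 0 of them and DESeq2 14 lower, against 1.24% of the genes DESeq2 kept. Without parental mouse 3, 17 members had an unadjusted p under 0.05 and the median was -0.27, and the other mice left out in turn gave 25 to 30 members. Eif2ak2, which encodes the double-stranded RNA kinase PKR, was at 91.3 and 104 CPM in parental and 68.8, 69.4 and 64.1 CPM in E0771-Res1 mice (log2 fold change -0.53, SE 0.09, edgeR adjusted p = 0.0591). Irf7, the factor that amplifies the type I response, had a log2 fold change of -0.43 (edgeR adjusted p = 0.121). Ifi27l2a, a gene of the ISG12 family, was at 4694 and 4267 CPM against 3151, 3405 and 3473 CPM. The members named here and in the following paragraphs beyond the called genes and those that the study names were chosen after their values were seen.

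The interferon gamma response genes showed like values. Of 23 tested, 18 were lower at an unadjusted p under 0.05 and 0 higher (6.27% and 5.91% of all genes). Without overlap 18 were lower (14.6% of all genes), and the median log2 fold change was -0.44. EdgeR called 0 and DESeq2 10 (0.719% higher and 1.24% lower among the genes DESeq2 kept). Igtp, an immunity-related GTPase that acts on vacuoles of pathogens and whose promoter above holds adjoining GAS and ISRE matches, was at 116 and 143 CPM in parental and 80.8, 68.9 and 85.7 CPM in E0771-Res1 mice (log2 fold change -0.71, SE 0.12, edgeR adjusted p = 0.0591). Gbp7, a guanylate-binding protein gene with 2 GAS matches and an ISRE match, was at 137 and 146 CPM against 95.3, 93.3 and 107 CPM (log2 fold change -0.52, SE 0.09, edgeR adjusted p = 0.0591). Fcgr4, an activating IgG receptor, had a log2 fold change of -0.72. Parp14, an ADP-ribosyltransferase of macrophages that is in the type I list and not in this list, had one of -0.49. The interferon-induced chemokine genes Cxcl9 and Cxcl10, which attract T cells, overlapped between the groups, with log2 fold changes of -0.24 and -0.07. Cxcl9 ran from 251 to 428 CPM over the 5 mice.

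MHC class I and class II genes differed in their values. Of 19 class I presentation genes, 13 were lower and 1 higher at an unadjusted p under 0.05 (6.27% and 5.91% of all genes). Their median was -0.26, and edgeR called 0 and DESeq2 4 (0.719% higher and 1.24% lower among the genes DESeq2 kept). Without parental mouse 3, 6 were lower at that level. Tap1, the peptide transporter, was at 245 and 261 CPM in parental and 173, 174 and 214 CPM in E0771-Res1 mice (log2 fold change -0.43, edgeR adjusted p = 0.121). H2-T23, which encodes the non-classical molecule Qa-1, was at 426 and 434 CPM against 286, 300.5 and 313 CPM (log2 fold change -0.52, SE 0.09, edgeR adjusted p = 0.0591), although near-identical class I genes may share its reads. Calr, the chaperone calreticulin, was the member above the parental mice, at 477 and 443 against 601, 651 and 522 CPM. In contrast, 0 of 11 class II genes reached an unadjusted p under 0.05 in either direction by edgeR, DESeq2 called 0, and the median was -0.02. Cd74, the invariant chain, was at 7316 and 6904 CPM in parental and 7569, 5161 and 8606 CPM in E0771-Res1 mice, a log2 fold change of 0.00. H2-Eb1 and H2-Ab1, the class II beta chains, had log2 fold changes of 0.04 and 0.05, and both were lowest in E0771-Res1 mouse 2.

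**Figure D2:**
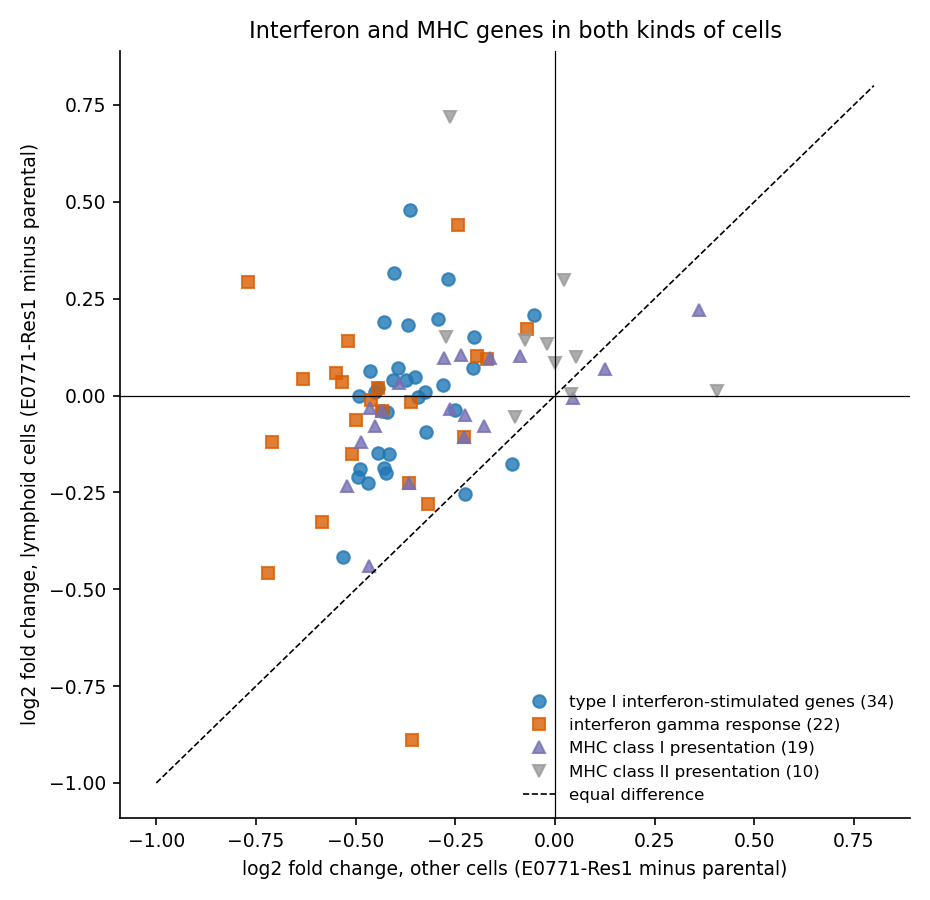
Log2 fold changes of E0771-Res1 against parental in other cells (horizontal) and lymphoid cells (vertical), with 1 point per gene of the interferon and MHC lists tested in both and a dashed line of equal values. All 34 type I points lie left of 0 and spread above and below 0 on the vertical axis, with medians of -0.40 in other and 0.01 in lymphoid cells.

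In lymphoid cells the medians of both interferon lists sat near 0. The median log2 fold change was 0.01 over 34 type I genes, with 1 higher and 2 lower at an unadjusted p under 0.05, and -0.01 over 22 interferon gamma response genes, with 0 higher and 4 lower. Without the lymphoid cells that held macrophage RNA the medians were -0.01 and -0.09. In all genes of these cells the shares were 2.69% and 2.55%. The difference between lymphoid and other cells was tested in a fit with mouse as a block. At an unadjusted p under 0.05 the lymphoid effect was the higher one for 23 of 34 type I genes, 13 of 23 interferon gamma genes and 12 of 19 class I genes, against 4.11% of all 11155 genes, and the lower one for 0 of each. After adjustment 1 gene of all 11155 (0.00896%) passed, which was Ly6a. In lymphoid cells Ly6a was at 943 and 856 CPM in parental and 872, 925 and 947 CPM in E0771-Res1 mice, so the groups overlapped, where those of the other cells did not. Its lymphoid effect exceeded that of the other cells by 0.78 on the log2 scale (SE 0.11, edgeR adjusted p = 0.00685). Without parental mouse 3 this difference was 0.65 with an edgeR adjusted p of 0.267. Gbp7 had a difference of 0.67 (edgeR adjusted p = 0.162). The lists share members: 1 gene is in both interferon lists and 3 are in both the interferon gamma and the class I lists.

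Monocyte and macrophage marker genes also differed in level. The summed monocyte markers of the other cells were at 98.5% and 102% of the parental mean in parental and at 51.7%, 81.5% and 79.8% in E0771-Res1 mice, and the summed macrophage markers at 103% and 97.3% against 166%, 116% and 103%. E0771-Res1 mouse 1 stood farthest from the parental mice in both. All 7 monocyte markers had log2 fold changes below 0 and 7 of 8 macrophage markers above 0. At an unadjusted p under 0.05, 2 were lower and 2 higher (6.27% and 5.91% of all genes), and none passed edgeR's adjusted test. Ly6c2, the surface marker of inflammatory monocytes, was at 2567 and 2675 CPM in parental and 1252, 1841 and 1861 CPM in E0771-Res1 mice (log2 fold change -0.67, SE 0.14, edgeR adjusted p = 0.0872). Ifitm6 and Plac8, which are abundant in monocytes, had log2 fold changes of -0.72 and -0.50 (edgeR adjusted p = 0.269 and 0.302). Fn1, fibronectin, and Adgre1, which encodes F4/80, overlapped between the groups (-0.05 and 0.23). The part of these markers in the interferon values was not tested.

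The lipid-associated macrophage list held 2 of the called genes, Lpl and Cd9, and 6 of its 18 genes were higher at an unadjusted p under 0.05 (5.91% of all genes), with 0 lower and a median of 0.26. DESeq2 called 3 of them higher, against 0.719% of the genes it kept. Trem2, a receptor for lipids of damaged cells, was at 91.8 and 78.9 CPM in parental and 166, 152 and 129 CPM in E0771-Res1 mice. The groups did not overlap, and the log2 fold change was 0.80 (SE 0.15, edgeR adjusted p = 0.0733), while DESeq2 gave an adjusted p of 0.000249. Cd36, a fatty acid and oxidized lipid receptor, had a log2 fold change of 0.96 (edgeR adjusted p = 0.208), with 63.5 CPM in E0771-Res1 mouse 2 and 20.7 or less in the parental mice. Gpnmb, a lysosomal glycoprotein of lipid-laden macrophages, was at 102 CPM in both parental mice and 76.6, 132 and 129 CPM in E0771-Res1 mice, and Ctsd, cathepsin D, had a log2 fold change of 0.21. The 3 C1q chain genes, whose products start the classical complement pathway, had log2 fold changes of 0.38 to 0.42 (edgeR adjusted p = 0.454 to 0.532). C1qb was at 1608 and 1419 CPM in parental and 2672, 1616 and 1628 CPM in E0771-Res1 mice, so that E0771-Res1 mouse 1 lay farthest from the parental mice. Of 18 tested genes of the C1q and resident-type macrophage list, 7 were higher and 1 lower at an unadjusted p under 0.05, with a median of 0.38, and edgeR called 0 and DESeq2 3. Mrc1, the mannose receptor CD206, Folr2, a folate receptor, and Stab1, a scavenger receptor, had log2 fold changes of 0.90, 1.17 and 1.03 (edgeR adjusted p = 0.164, 0.204 and 0.142).

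The other cells were divided at the median share of UMIs from the C1q genes over all 8 mice, 0.0780%, which is a point on a range and not a border between cell types, with 4.84% to 6.30% of cells within 20% of it. At or above it lay 39.6% and 38.5% of the parental and 54.7%, 38.6% and 42.9% of the E0771-Res1 cells, so that E0771-Res1 mouse 2 lay between the parental mice. This division was added after the data were seen. At or above the median, edgeR called 30 genes higher and 45 lower of 10101 (0.297% and 0.446%). Below it, 0 genes were called higher and 1 of 10420 (0.0096%) lower, which was Ly6a. In cells at or above the median Lpl, Mmp12, Cd9, Mmp13, Nrp2, Cxcl2 and Hsph1 rose, Trem2 rose by 0.93 on the log2 scale (edgeR adjusted p = 0.0131), and Stab1 by 1.17 (edgeR adjusted p = 0.0427). In the same cells Ly6c2 (-0.86, edgeR adjusted p = 0.00509), Fcgr4 (-0.88, 0.00284), Gbp7 (-0.63, 0.0239), H2-T23 (-0.55, 0.0375), Tap1 (-0.52, 0.0427) and Ifi27l2a (-0.38, 0.0356) fell. Below the median Trem2 and Stab1 had log2 fold changes of 0.24 and 0.23 (edgeR adjusted p = 0.711 and 0.879). There Cd9, Cxcl2, Nrp2, Lpl, Mmp12, Mmp13 and Hsph1 had log2 fold changes of 0.96, 1.36, 0.72, 0.84, 1.52, 0.83 and 0.88. Those of Ly6c2, Fcgr4, Gbp7, H2-T23, Tap1 and Ifi27l2a were -0.49, -0.67, -0.39, -0.45, -0.32 and -0.39 in the same cells. The difference between the 2 fractions was not tested. Of 34 type I interferon genes, 22 and 25 were lower at an unadjusted p under 0.05 at or above and below the median, with medians of -0.37 and -0.34, where 6.45% and 4.1% of all genes were lower. Of 23 interferon gamma genes, 17 and 12 were lower, with medians of -0.50 and -0.32, and edgeR called 6 and 0. Of 19 class I genes, 13 and 5 were lower, with medians of -0.33 and -0.19, and edgeR called 3 and 0.

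**Figure D3:**
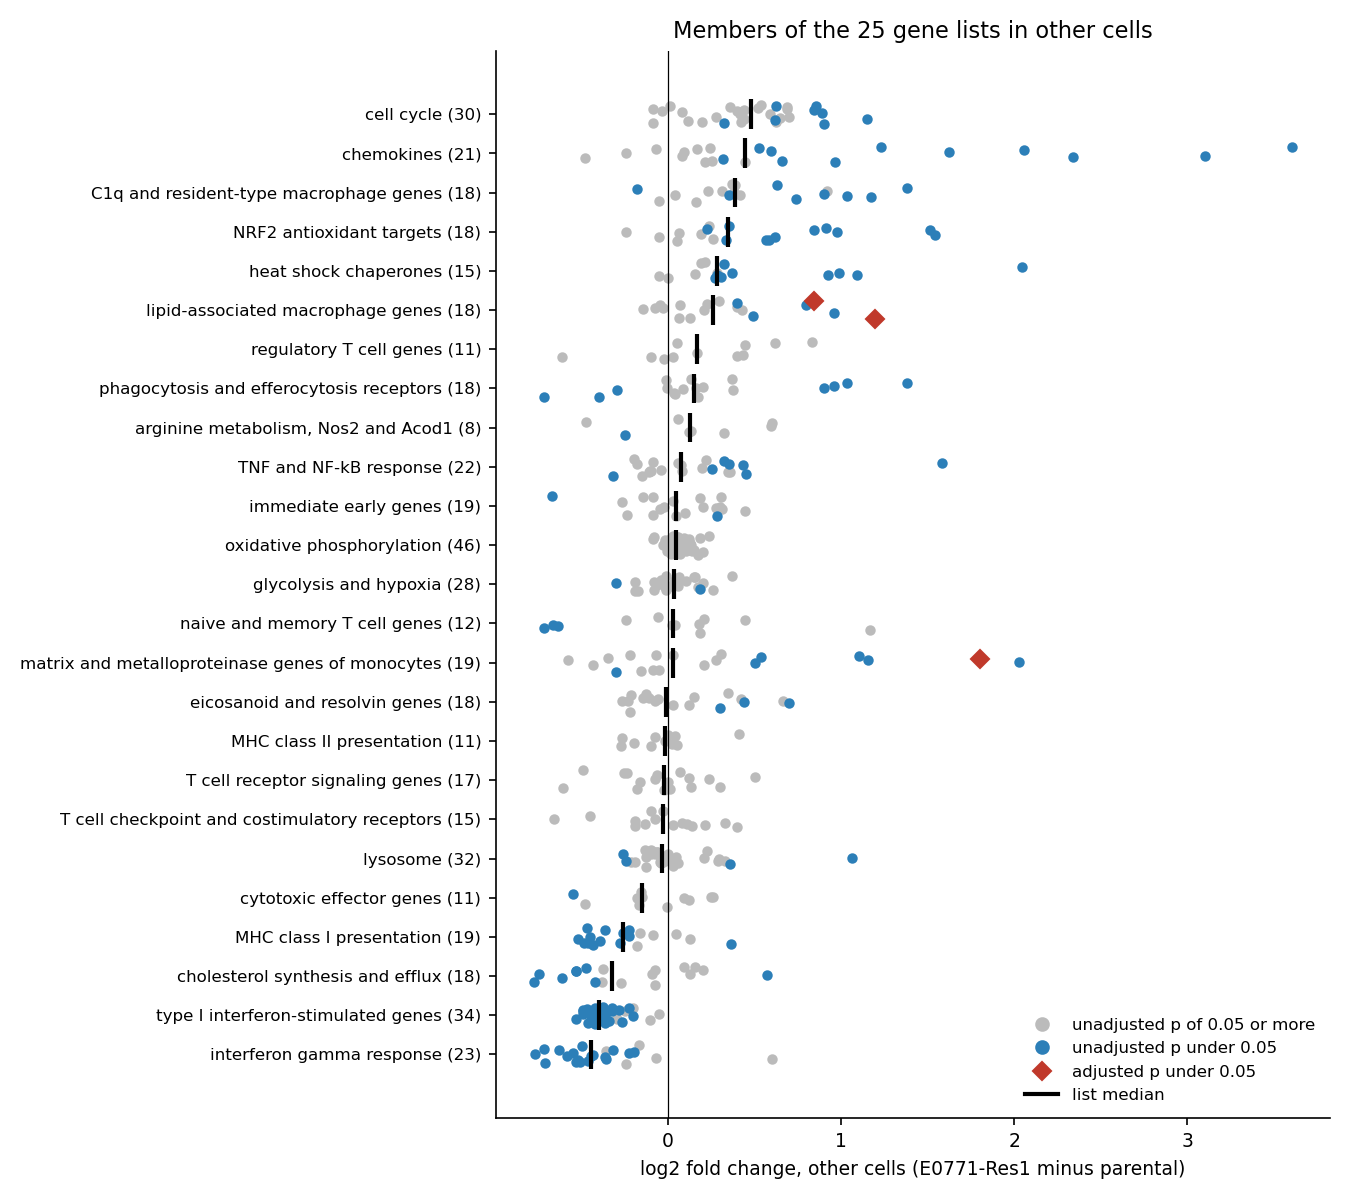
Log2 fold changes of the genes of each list in the other cells, with 1 point per gene, colored by its unadjusted and adjusted p, the list's median as a bar and the number of genes in brackets. The interferon and MHC class I lists lie below 0, MHC class II and oxidative phosphorylation at about 0, and the chemokine list above it.

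Chemokine genes had higher values in E0771-Res1 tumors. EdgeR called 0 of the 21 tested and DESeq2 4 (0.719% higher and 1.24% lower among the genes DESeq2 kept). Without overlap between mice 9 were higher (13.5% of all genes), and the median was 0.45. At an unadjusted p under 0.05, 11 were higher and 0 lower (5.91% and 6.27% of all genes). Without parental mouse 3, 5 were higher at that level. Cxcl2, the neutrophil attractant with the kappaB match above, was at 1745 and 1540 CPM in parental and 2762, 5627 and 3184 CPM in E0771-Res1 mice (log2 fold change 1.23, SE 0.25, edgeR adjusted p = 0.0868). It was highest in mouse 2. Cxcl1, of the same family, was at 2.44 and 2.64 CPM against 18.4, 34.1 and 15.1 CPM (log2 fold change 3.10, SE 0.52, edgeR adjusted p = 0.0591). Its UMIs stood in few of the other cells, 11 and 6 in parental and 43, 19 and 13 in E0771-Res1 mice. The top 5 cells held 68.4% and 90.9% of them in parental and 50.9%, 74.2% and 89.4% in E0771-Res1 mice. Ccl24, an eosinophil attractant, was at 7.06 and 5.04 against 14.02, 33.7 and 34.3 CPM (edgeR adjusted p = 0.0868). Ccl3 and Ccl4, which attract monocytes and T cells, had log2 fold changes of 0.52 and 0.32 (edgeR adjusted p = 0.313 and 0.387). In the TNF and NF-kB list 6 of 22 genes were higher and 1 lower at an unadjusted p under 0.05 (5.91% and 6.27% of all genes). The list's median was 0.08.

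Antioxidant and heat shock genes were highest in E0771-Res1 mouse 2. NRF2 is the factor that answers oxidants. Of its 18 tested targets, 11 were higher and 0 lower at an unadjusted p under 0.05 (5.91% and 6.27% of all genes). Their median was 0.35, and edgeR called 0 and DESeq2 1 (0.719% higher and 1.24% lower among the genes DESeq2 kept). Without E0771-Res1 mouse 2, 6 were higher and the median was 0.19. Hmox1, heme oxygenase 1, was at 234 and 189 CPM in parental and 365, 1202 and 297 CPM in E0771-Res1 mice, and its log2 fold change of 1.54 (edgeR adjusted p = 0.209) was 0.65 without mouse 2. Gclm, of glutathione synthesis, was at 20.4 and 19.2 against 38.6, 111 and 28.2 CPM, and its log2 fold change of 1.51 was 0.78 without mouse 2. Abcc1, a glutathione conjugate exporter, was less uneven, at 16.1 and 14.4 against 27.7, 39.5 and 25.3 CPM (log2 fold change 0.98, edgeR adjusted p = 0.0868). Among 15 heat shock chaperones 9 were higher and 0 lower (5.91% and 6.27% of all genes), with a median of 0.29. Hsph1, an HSP110 chaperone, was at 21.8 and 17.5 against 41.8, 52.0 and 35.1 CPM (log2 fold change 1.09, edgeR adjusted p = 0.0591). The summed heat shock genes were at 114%, 139% and 126% of the parental mean.

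Mouse 2 also held the most neutrophil RNA and the parental mouse 1 the most erythroid RNA. Summed neutrophil markers of the other cells were at 78.0 and 112 CPM in parental and 104, 310.2 and 109 CPM in E0771-Res1 mice, and S100a9, an abundant neutrophil protein gene, at 4.11 and 17.8 against 28.8, 149 and 28.7 CPM, while the defining neutrophil gene Ly6g had at most 1 UMI in any mouse. Summed erythroid markers were at 40.1 and 3.84 CPM against 9.24, 1.36 and 2.24 CPM, and Hba-a1, alpha globin, was at 10.7 CPM in parental mouse 1 and at 1.81 CPM or less elsewhere. The part of these in the results was not tested.

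**Figure D4:**
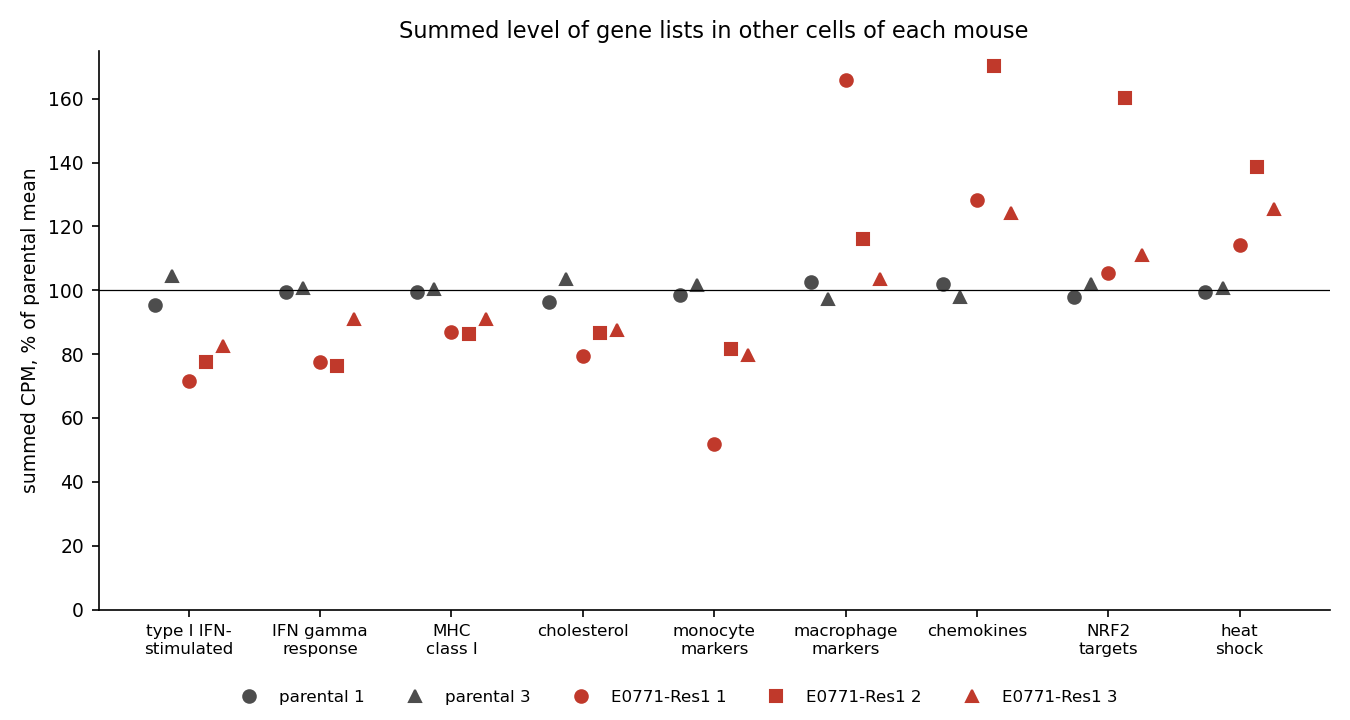
Summed level of each list in the other cells of each mouse, as a percentage of the mean of the 2 parental mice. Interferon, MHC class I and cholesterol lists lie below 100% in all 3 E0771-Res1 mice, and the chemokine and NRF2 lists are highest in mouse 2, at 170% and 160%.

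Cholesterol genes had lower values in both kinds of cells. In the other cells 7 of 18 were lower and 1 higher at an unadjusted p under 0.05 (6.27% and 5.91% of all genes). Their median was -0.32, and edgeR called 0 and DESeq2 3 lower (1.24% of the genes DESeq2 kept). In lymphoid cells 4 of 17 were lower and 0 higher (2.55% and 2.69% of all genes), with a median of -0.35. Most of these lymphoid cells also held macrophage RNA, so the lymphoid values are not those of lymphoid RNA alone. Msmo1, Cyp51 and Idi1, enzymes of sterol synthesis, had log2 fold changes of -0.62, -0.78 and -0.74 in the other cells (edgeR adjusted p = 0.0868, 0.140 and 0.119), each lower in all 3 E0771-Res1 mice than in both parental mice. The higher one was Abca1, which exports cholesterol, at 21.7 and 15.1 CPM against 27.2, 35.2 and 22.7 CPM (log2 fold change 0.57, edgeR adjusted p = 0.328). Matrix and metalloproteinase genes held the called Mmp12, with 6 of 19 higher and 1 lower at an unadjusted p under 0.05 and a median of 0.03. Cell cycle genes had 8 of 30 higher and 0 lower, with a median of 0.48 in other cells, against 0 higher and 1 lower and a median of -0.01 in lymphoid cells. The 8 cell cycle genes were 1 without E0771-Res1 mouse 1, 3 and 4 without parental mouse 1 or 3, and 19 without E0771-Res1 mouse 2.

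In other lists fewer genes reached an unadjusted p under 0.05 in the other cells than in the interferon lists. Oxidative phosphorylation had 0 of 46 genes at an unadjusted p under 0.05 by edgeR, with 0 called by DESeq2 and a median of 0.05. Glycolysis and hypoxia had 1 higher and 1 lower of 28, lysosome genes 2 and 2 of 32, immediate early genes 1 and 1 of 19, and arginine metabolism 0 higher and 1 lower of 8, where 5.91% and 6.27% of all genes were higher and lower. Phagocytosis receptors had 4 higher and 3 lower of 18, with a median of 0.15, and eicosanoid and resolvin genes 3 higher and 0 lower of 18, with a median of -0.01. Arg1, arginase 1, ran from 4.48 to 52.9 CPM with both extremes in E0771-Res1 mice (log2 fold change -0.47, SE 0.78). Elovl5, an elongase of polyunsaturated fatty acids, was at 19.5 and 16.8 CPM against 17.1, 15.1 and 18.4 CPM (log2 fold change -0.11). C1qbp, a mitochondrial protein that also binds C1q, was at 49.3 and 46.1 CPM against 81.6, 69.1 and 60.5 CPM in other cells (log2 fold change 0.57, edgeR adjusted p = 0.119) and had a log2 fold change of -0.03 in lymphoid cells. The difference between the 2 kinds of cells was -0.60 (edgeR adjusted p = 0.363).

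In lymphoid cells, 2 genes rose and 2 fell, of 9500 tested (0.0421%), by edgeR with Benjamini-Hochberg adjustment, and 498 (5.24%) had an unadjusted p under 0.05. Without the highest 5% of Scrublet doublet scores, or without the cells that held more than 3 macrophage UMIs, edgeR called 0 genes, with 450 and 184 at an unadjusted p under 0.05, and DESeq2 called 4 on all lymphoid cells. Leaving out the cells with macrophage RNA took away most lymphoid cells of each mouse, and 4842 genes were then tested. A call lost there does not by itself show a lost difference. Cxcl2 (chr5:90903871-90905938, plus strand) was at 550 and 588 CPM in parental and 1207, 1145 and 1573 CPM in E0771-Res1 mice. The E0771-Res1 values were all above the parental ones, and the log2 fold change was 1.21 (SE 0.13, edgeR adjusted p = 0.000457). Once the lymphoid cells with more than 3 UMIs over the macrophage genes were removed, its log2 fold change was 0.11 (edgeR adjusted p = 1). Without the highest 5% of doublet scores it was 0.90 (edgeR adjusted p = 0.161). Lpl and C1qb, which lymphoid cells are not known for, were also at 54.3 to 151 and 471 to 1406 CPM in the lymphoid cells. Nfkbia, the NF-kB inhibitor, likewise had a log2 fold change of 0.55 (edgeR adjusted p = 0.307), and 0.03 without the cells that carried macrophage RNA.

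Nr4a2, an orphan nuclear receptor that T cell receptor signals raise (chr2:57106830-57124003, minus strand), fell from 293 and 275 CPM to 132, 203 and 153 CPM, a log2 fold change of -0.86 (SE 0.14, edgeR adjusted p = 0.0334). Without 1 mouse its adjusted p ran from 0.00345, without E0771-Res1 mouse 2, to 0.516, without parental mouse 1, and it was 0.161 without the highest doublet scores and 1 without the cells with macrophage RNA, where the log2 fold change was -0.52. Nr4a2 of the other cells was at 96.2 and 95.3 against 40.6, 70.9 and 72.9 CPM (log2 fold change -0.67, edgeR adjusted p = 0.214). Cacnb3, a calcium channel subunit gene that mature dendritic cells express (chr15:98630840-98644529, plus strand), fell from 14.6 and 16.9 CPM to 2.75, 1.34 and 2.20 CPM (edgeR adjusted p = 0.0334), with UMIs in 8 and 2 parental and 6, 1 and 2 E0771-Res1 cells, and DESeq2 gave an adjusted p of 0.0703. Each mouse left out in turn raised edgeR's adjusted p, to between 0.0509 and 0.465. It lay under the expression level set for named genes and is named because few genes were called. Fscn1, fascin of mature dendritic cells, was at 43.7 and 41.6 against 6.11, 24.1 and 12.5 CPM (log2 fold change -1.97, edgeR adjusted p = 0.155). The top 5 lymphoid cells of each mouse held 85% to 100% of its UMIs. Of the same marker list, Ccl22 was at 35 and 9 against 11, 19 and 5 UMIs and Socs2 at 59 and 8 against 36, 12 and 42. The list summed to 192 and 169 against 96.5, 130 and 138 CPM in lymphoid cells. In the other cells it overlapped, at 206 and 141 against 216, 90.8 and 235 CPM.

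Gzmf encodes granzyme F, a serine protease of killer cell granules (chr14:56205263-56211417, minus strand). It rose from 1.46 and 10.4 CPM to 117, 202 and 31.6 CPM, a log2 fold change of 4.77 (SE 0.77, edgeR adjusted p = 0.0334). Its UMIs stood in 3 and 2 parental and 10, 3 and 3 E0771-Res1 cells, and 98.7% to 100% of them were in the top 5 cells of each mouse. DESeq2 gave an adjusted p of 0.375, and edgeR 0.687 without parental mouse 1, 0.0699 without parental mouse 3, 0.0869 without E0771-Res1 mouse 1 and 0.0589 without the highest doublet scores. The granzyme genes of this cluster are near-identical in parts, so their counts are uncertain. Gzmc and Gzmd, its neighbours, overlapped between the groups, at 292 and 1298 against 1906, 1043 and 1597 CPM for Gzmc.

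Other genes of killer cells went in both directions. In the list of cytotoxic effectors, 4 of 15 were higher and 2 lower at an unadjusted p under 0.05, with a median of 0.07. Of all genes of the lymphoid cells, 2.69% were higher and 2.55% lower at that level. Gzmb, granzyme B, was at 569 and 645 CPM in parental and 1055, 873 and 820 CPM in E0771-Res1 mice (log2 fold change 0.60, SE 0.12, edgeR adjusted p = 0.0951, DESeq2 adjusted p = 0.0236), and at 0.20 with each cell thinned to 3000 UMIs. Prf1, perforin, and Ifng, interferon gamma, overlapped between the groups (0.15 and 0.07), and Nkg7, of the lytic granule, and Fasl, the Fas ligand, had log2 fold changes of -0.30 and -0.79 (edgeR adjusted p = 0.688 and 0.636). Tox, the factor of exhausted CD8 T cells, was at 114 and 97.4 CPM against 73.0, 72.3 and 57.3 CPM (log2 fold change -0.66, edgeR adjusted p = 0.358), and Pdcd1, which encodes PD-1, overlapped (-0.38). In the checkpoint list 3 of 17 genes were higher and 3 lower, with a median of 0.00.

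CD8 and regulatory T cell genes lay on opposite sides of 0. Cd8a, a chain of the CD8 coreceptor, was at 251 and 178 CPM in parental and 152, 118 and 125 CPM in E0771-Res1 mice (log2 fold change -0.70, SE 0.21, edgeR adjusted p = 0.586), and Cd8b1 had a log2 fold change of -0.54 (edgeR adjusted p = 0.788). Both were lower in every E0771-Res1 mouse. The T cell receptor genes Cd3e and Trbc1 had log2 fold changes of -0.36 and -0.72 (edgeR adjusted p = 0.748 and 0.357). Cd3e is a gene of the lymphoid gate, so its level in the cells so chosen is not independent of the gate. Of 12 regulatory T cell genes, 6 were higher and 0 lower at an unadjusted p under 0.05 (2.69% and 2.55% of all genes). The median was 0.40, and edgeR and DESeq2 called 0. With cells thinned to 3000 UMIs 2 were higher at that level, and 1 without the cells with macrophage RNA. Foxp3, the factor that defines these cells, was at 38.3 and 26.0 CPM against 44.3, 57.6 and 47.0 CPM (log2 fold change 0.49, edgeR adjusted p = 0.945), and Il2ra, Ctla4 and Tnfrsf4, surface receptors of these cells, had log2 fold changes of 0.57, 0.48 and 0.40 (edgeR adjusted p = 0.837, 0.716 and 0.410). T cell receptor signaling genes had 0 higher and 3 lower of 18 and naive and memory genes 0 higher and 1 lower of 13. The former list includes the gate genes Cd3d, Cd3e and Cd3g, so it is not independent of the gate either.

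The share of lymphoid cells among kept cells was 16.04% and 11.2% in parental and 14.3%, 11.8% and 13.7% in E0771-Res1 mice, with means of 13.6% ± 3.40 (SD, n = 2) and 13.2% ± 1.31 (SD, n = 3) that overlapped (exact two-sided permutation test, p = 1). Among lymphoid cells, 38.3% and 33.8% in parental and 27.1%, 22.5% and 27.3% in E0771-Res1 mice held a Cd8a or Cd8b1 UMI. These shares did not overlap, with a difference of -10.4 percentage points (exact permutation p = 0.1, adjusted p = 0.3 over 6 measures). With 2 against 3 mice 0.1 is the smallest p that the 10 splits allow. Of the other cells, which can include T cells with fewer than 2 UMIs over the gate genes, 3.00% to 5.03% held such a UMI. They had medians of 7552 to 8072 UMIs per cell against 8993 to 10247 in lymphoid cells. Foxp3 UMIs stood in 21.7% and 16.2% of parental and 24.0%, 25.4% and 24.2% of E0771-Res1 lymphoid cells, a difference of 5.59 points (exact permutation p = 0.1, adjusted p = 0.3), and in 0.742% to 1.56% of the other cells. The CD8 and Foxp3 shares are parts of the same lymphoid cells, so they are not independent of each other. As shares of all kept cells they were not compared, and the lack of overlap holds for shares of lymphoid cells only. Thinned to 3000 UMIs per cell, the CD8 shares were 43.1% and 38.3% against 27.5%, 23.8% and 28.9%, and the Foxp3 shares 14.6% and 8.51% against 18.7%, 21.4% and 15.7%. For these shares cells under 3000 UMIs were left out and the gate was applied to the thinned counts. The lymphoid cells counted thus differ from those of the main shares. The thinned gene fits kept the gate of the full counts and all kept cells. NK cells, with Ncr1 and no CD3 UMI, made up 9.77% ± 2.82 (SD, n = 2) of parental and 9.60% ± 1.73 (SD, n = 3) of E0771-Res1 lymphoid cells (exact permutation p = 1). By the lymphoid gate such cells hold at least 2 Ncr1 UMIs, so this share leaves out NK cells with fewer. The share of deposited cells kept (92.7% and 90.7% on average, exact permutation p = 0.4) and the median UMIs per cell (8085 and 7977 on average, exact permutation p = 1) overlapped.

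**Figure D5:**
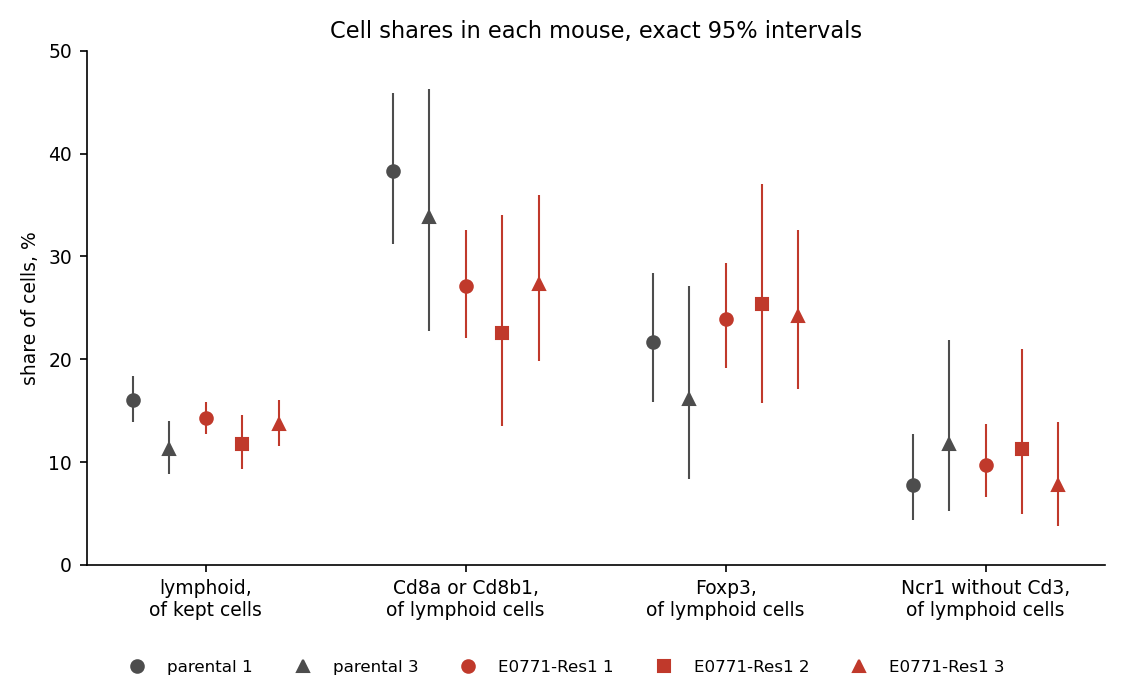
Shares of lymphoid cells among kept cells, and of CD8, Foxp3 and NK cells among lymphoid cells, in percent, for each mouse with exact 95% binomial intervals that cover counting error only. The CD8 shares of the 3 E0771-Res1 mice (22.5% to 27.3%) lie below both parental mice (33.8% and 38.3%), and the Foxp3 shares lie above them.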

How the data were processed

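CD45+ cells of 8 mice (2 parental, 3 E0771-Res1, 3 E0771-Res2) carried CellPlex oligonucleotide tags, were pooled and were sequenced from the 3' end. The authors counted UMIs with Cell Ranger 6.1.2, per the file headers, against mm10, per the submitters' processing notes, which also name Seurat, and deposited 1 matrix of raw, not normalized UMI counts per mouse. Tag features stayed out of all sums. The members and lists were chosen with earlier results of these data known.

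UMI counts of 32285 genes were summed per mouse over all kept, lymphoid and other cells and fitted in edgeR 4.0.16 (R 4.3.3) over the 3 groups, with TMM factors, filterByExpr, quasi-likelihood tests and Benjamini-Hochberg adjustment at 0.05, after checks on simulated counts. CPM values use TMM-scaled totals. Lymphoid and other effects were compared with mouse as a block. DESeq2 1.42.0, other filters, gates, thinning, leaving out each mouse and a replicate block were alternatives. Doublets were kept, and Scrublet scores (scanpy 1.11.5) served 1 alternative. Shares have Clopper-Pearson intervals (scipy 1.17.1) and were compared by exact permutation over mice.

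Named were genes past an adjusted p of 0.05, with no overlap between mice and an average log2 CPM from 5 upwards, and genes that the study names. Coordinates of genes are GRCm38 (GENCODE). The replicate numbers name different mice, so same-numbered mice were not treated as pairs. They correlated at -0.04 to 0.24, and differently numbered ones at -0.22 to 0.12. Counts of parental mice 1 and 3 differed by more than sampling noise (chi-square per degree of freedom 2.69), as did those of the E0771-Res1 mice (8.9 to 13.2).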

Additional observations from a re-analysis of the deposited data

Results flagged for a closer look

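The effect of E0771-Res1 tumors on Ly6a, the gene of the surface protein Sca-1, differed between lymphoid and other cells by 0.78 on the log2 scale (SE 0.11, edgeR's quasi-likelihood test with mouse as a block, adjusted p = 0.00685). In the other cells Ly6a fell by 0.75 on the log2 scale, with all 3 E0771-Res1 mice below both parental mice, and in lymphoid cells its log2 fold change was 0.02, with overlapping mice. Without the lymphoid cells that held more than 3 macrophage UMIs the lymphoid value was 0.06. Groups of 2 and 3 mice were too small for a test of outlying samples.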

How the results depend on the processing

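The number of called genes depended on the tool, the filter and the mice, while directions held for every called gene under every alternative that gave a value (Cacnb3 of lymphoid cells was not tested with thinned cells), with Lpl, Cd9, Mmp12 and Ly6a of the other cells changed the same way throughout. Against 6 genes over all kept cells, DESeq2 called 74, edgeR without a filter on low counts 421, a fit of only the 5 mice 1, a fit with the replicate block 48 and cells thinned to 3000 UMIs 3. Against 4 genes in lymphoid cells, no filter gave 79, only the 5 mice 10, the replicate block 8, and both the removal of the highest doublet scores and that of cells with macrophage RNA 0 (450 and 184 genes at an unadjusted p under 0.05). Against 4 genes in other cells, DESeq2 gave 136, no filter 461, the replicate block 109, a lymphoid gate of 1 UMI 35, and the cells at or above and below the median C1q share 75 and 1. For the difference between lymphoid and other cells, no filter gave 58 genes against 1. The cause of these shifts was not tested. With each mouse left out in turn, edgeR called 0 to 50 genes over all kept cells, 2 to 6 in lymphoid, 0 to 114 in other cells, and 0 to 2 for the difference. Where 1 parental mouse was left, it is assumed to vary like the other groups. In deviations from the group means, same-numbered mice of different groups correlated at -0.04 to 0.24 and differently numbered ones at -0.22 to 0.12. Whether same-numbered mice share more than a number was not tested. Every gene called without the replicate block was called with it.

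Signs turned for the following genes, none of them called in those cells, and shares. The log2 fold change of C1qbp in lymphoid cells was 0.0042 with the replicate block, 0.0047 with thinned cells and 0.20 with a gate of 1 UMI. Prf1 was at -0.23 thinned and -0.22 without cells with macrophage RNA, Ifng at -0.033 with the replicate block and -0.072 thinned, Tnfrsf4 at -0.15 without cells with macrophage RNA, and Ly6a of lymphoid cells at -0.28 with a gate of 1 UMI. In the other cells Fn1 was at 0.058 with that gate, and at 0.51 and 0.011 at or above and below the median C1q share, and at or above it Cd74 was at -0.19, H2-Eb1 at -0.18 and H2-Ab1 at -0.12. Below it Arg1 was at 0.53 and Cxcl10 at 0.00063. Cxcl10 was at 0.023 thinned and Cd74 at -0.0053 over all deposited cells. With each mouse left out, C1qbp of lymphoid cells ran from -0.28 to 0.13, Gzmd from -3.88 to 9.94, Ifng from -0.067 to 0.29, Ly6a of lymphoid cells from -0.044 to 0.095, Ctsd from -0.0046 to 0.34, Fn1 from -0.24 to 0.18, Cd74 from -0.16 to 0.19, H2-Eb1 from -0.15 to 0.29, H2-Ab1 from -0.14 to 0.29, Arg1 from -1.75 to 0.054, Elovl5 from -0.19 to 0.016, Cxcl10 from -0.16 to 0.029, Hba-a1 from -4.08 to 0.19 and Gpnmb from -0.0048 to 0.36. The difference in lymphoid share was 0.505 points with a gate of 1 UMI and -2.82 to 1.98 with each mouse left out. The difference in NK share was 0.167 over all deposited cells, 1.02 without the highest doublet scores, 0.371 thinned and -2.16 to 1.82 with each mouse left out, and that in median UMIs -200.2 to 64.2.

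Both parental mice bear each call in the other cells, and 2 against 3 mice cannot give an exact permutation p under 0.1. Lymphoid values rest on 68 to 288 cells per mouse, so that rare transcripts such as Gzmf stand in a handful of cells. Doublets were not removed.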
